A study of Mus musculus with 6 samples.

Results

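The genes described here are 9 genes of the epithelial-to-mesenchymal transition (EMT): the repressor genes Zeb1, Zeb2, Snai1, Snai2 and Twist1, the mesenchymal protein genes Vim and Fn1, and the matrix protease genes Mmp2 and Mmp14. Their members on the array are all probe sets that the authors' deposited table names by the current symbol or an older synonym. All 9 genes were found, out of 12287 named genes, with 19 of the 45037 probe sets tested. Zeb1 was listed as Zfhx1a, and Zeb2 as Zfhx1b for 3 probe sets and under a cDNA clone name for the other 2. One further probe set, 1451044_at, carries the name Sip1, an old name of Zeb2 that also belongs to other genes. It was not counted as a member, and its log2 difference was 0.18 (SE 0.348).

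The samples were CGR8 mouse embryonic stem cells, a feeder-independent line, differentiated as embryoid bodies and sorted on day 5 by flow cytometry. No transgene, deletion or drug treatment is named in the labels for either group. The double-positive group (CXCR4+/FLK+) carried both surface proteins, and the double-negative group (CXCR4-/FLK-) carried neither, with 3 samples each, 1 Affymetrix Mouse 430 2.0 array per sample. Both groups come from 1 line, so the comparison holds for that line. The series text describes the samples as independently collected biological replicates and also speaks of RNA pools, without saying what was pooled. CXCR4 is a chemokine receptor, and FLK-1, encoded by Kdr, is a receptor of vascular endothelial growth factor found on mesoderm that can form heart, vessels and blood.

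EMT is the passage of cells out of an epithelial sheet, in which cells lose E-cadherin junctions, take on a vimentin cytoskeleton and move through matrix. In the mouse embryo it takes place in the primitive streak, where epiblast cells become mesoderm, and again when cardiac cushions form and neural crest leaves the neural tube. Zinc finger factors of the Snail and Zeb families and the basic helix-loop-helix factor Twist1 bind short DNA words called E-boxes, and the Snail and Zeb factors repress epithelial genes such as Cdh1 there. Embryoid bodies pass through a comparable step when mesoderm forms.

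Each value is a ratio of a probe set on an array to the median of that probe set over the 3 double-negative arrays. Ratios compare arrays and give no level of a transcript, so no gene is set against another by abundance, and since these are bulk samples, fewer cells of a type and less RNA per cell cannot be told apart. The authors' deposited table also gives a flag score up to 6, taken as how many of the 6 arrays detected a probe set. Differences are double positive minus double negative on the log2 scale, tested with limma over all 45037 probe sets with Benjamini-Hochberg adjustment (adjusted p below 0.05). No probe set passed (0%), the smallest adjusted p being 0.176, while 2478 had an unadjusted p under 0.05.

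The replicate 1 arrays stood apart. The median ratio of the 14140 probe sets detected on all 6 arrays was 0.725 in double-positive replicate 1 and 0.714 in double-negative replicate 1, against 1 to 1.12 on the other 4 arrays. The 5'/3' control ratio is the log2 ratio of the 5' to the 3' control probe sets of Gapdh and Actb, an index of RNA length. It was -2.027 in double-negative replicate 1 and -0.508 in double-positive replicate 1, against 0.018 to 0.055 elsewhere. Each control probe set was itself taken relative to its double-negative median. The values therefore compare arrays and do not show that 5' and 3' signals were equal on any array. The sort genes matched the labels: Cxcr4 stood at 5.55-fold (95% confidence interval 2.62 to 11.8, n = 3 per group) and Kdr at 6.17-fold (1.91 to 20) in double-positive arrays, with limma adjusted p = 0.451 and 0.73 and no overlap between groups. The mean log2 ratio of 5 pluripotency markers ran from -1.8 to -1.16 in double-positive arrays and from -0.33 to 0.26 in double-negative ones. For 4 measured primitive blood markers it was 2.85 in double-negative replicate 1 and -1.97 to 0.45 on the other 5 arrays. Over 7 measured visceral and parietal endoderm markers the mean was -1.22 and -1.24 on the replicate 1 arrays and -0.05 to 0.57 on the others. Of the neuroectoderm and neural crest markers 2 of 6 were measured, at -0.76 to 0.53, of the endothelial markers 2 of 5, at -0.29 to 0.64, and of the nascent and paraxial mesoderm markers 5 of 6, at -0.79 to 0.66. The part of these cell types in the results below was not tested.

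Zeb1 and Zeb2, repressors with paired zinc finger clusters and a homeodomain-like region, were the members whose double-positive values stood clear of the double-negative ones. Both Zeb1 probe sets and 2 of the 5 Zeb2 probe sets had all 3 double-positive values above all 3 double-negative values, 4 of 19 member probe sets, against 5.64% of all probe sets. By gene, with 1 probe set each, this was 2 of 9, against 5.13% of 12287 named genes. No member had all its double-positive values below, against 4.84% of probe sets and 5.32% of genes. None passed over the whole table, the smallest member adjusted p being 0.812 (limma), and 3 of 19 had an unadjusted p under 0.05 with a higher mean and 0 with a lower one, against 2.63% and 2.87% of all probe sets. The double-positive mean was higher for 15 of 19 member probe sets and lower for 4, against 53.6% and 46.4% of all probe sets, and higher for 7 of 9 genes and lower for 2, against 54.4% and 45.6% of named genes. The median log2 difference was 0.35 over the member probe sets and 0.05 over all probe sets. The other 7 genes overlapped between groups on each of their probe sets.

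**Figure D1:**
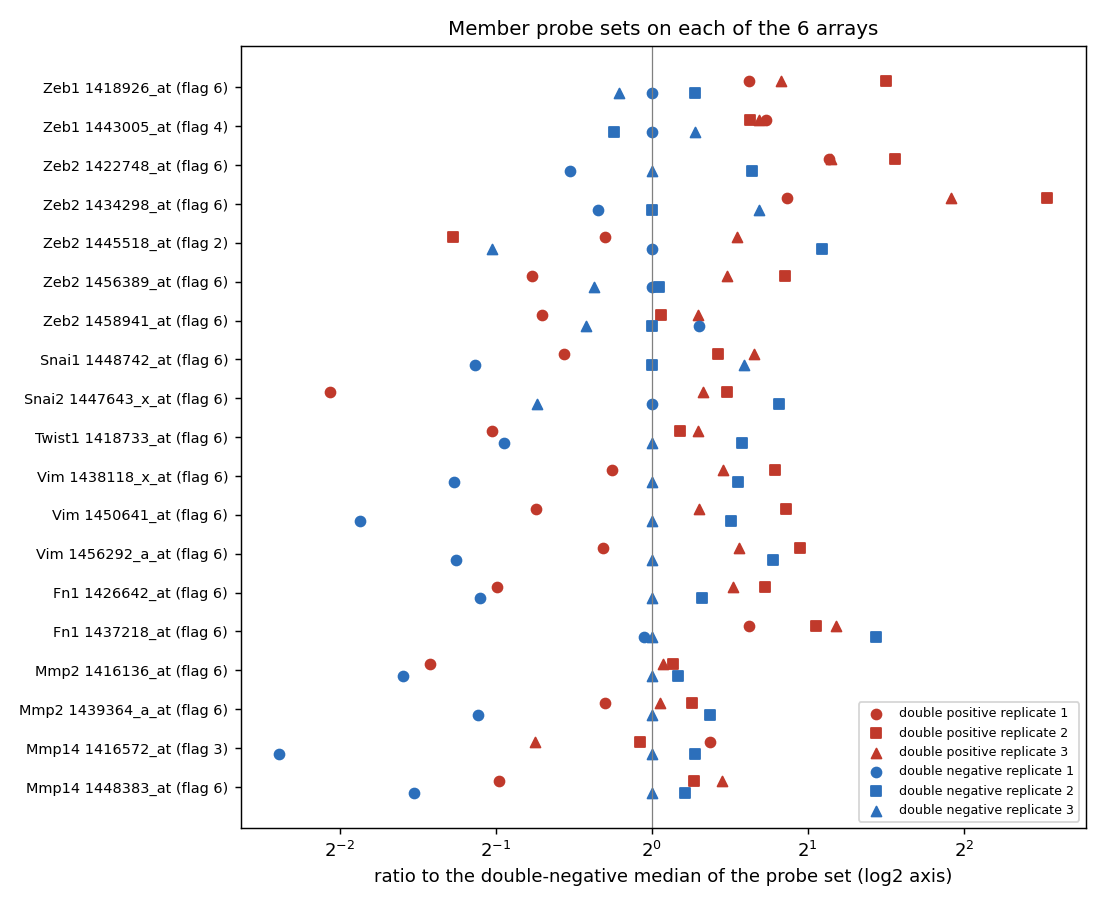
Ratio of each of the 19 member probe sets to its double-negative median (log2 axis) on the 6 arrays, with red for double-positive and blue for double-negative arrays and the shape giving the replicate number. The red points lie clear of the blue ones for both Zeb1 probe sets and for the Zeb2 probe sets 1422748_at and 1434298_at, and double-negative replicate 1 is the lowest point for 12 of 19 probe sets.

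The Zeb1 probe set 1418926_at, detected on all 6 arrays, stood at 1.543, 2.826 and 1.773 on the double-positive arrays (replicates 1 to 3, as in all values below) and at 1, 1.213 and 0.863 on the double-negative ones. The lowest double-positive array lay above the highest double-negative one. The double-positive mean was 1.95 times the double-negative one (interval at 95% confidence 1.02 to 3.73), a log2 difference of 0.96 (SE 0.398, limma adjusted p = 0.902). The second Zeb1 probe set, 1443005_at, with a flag score of 4, stood at 1.658, 1.549 and 1.613 against 1, 0.846 and 1.212. Its double-positive values lay close together, with an SD of 0.05 on the log2 scale against 0.26 in the double-negative group. The fold was 1.59 (0.902 to 2.81, log2 difference 0.67, SE 0.348, limma adjusted p = 0.967). Both probe sets of Zeb1 pointed the same way, and the larger difference of 1418926_at came with a double-positive replicate 2 that was the highest of the 6 arrays.

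Zeb2, which encodes a repressor also known as SIP1 and is needed for neural crest and blood lineages in the mouse, gave the largest differences among the members. Its probe set 1434298_at stood at 1.826, 5.793 and 3.786 on double-positive arrays against 0.788, 1 and 1.613. The double-positive spread was wide (SD 0.84 on the log2 scale), with replicate 1 the lowest and replicate 2 the highest, and the groups did not overlap. The ratio of means was 3.16-fold (1.31 to 7.64, log2 difference 1.66, SE 0.541, limma adjusted p = 0.812). Probe set 1422748_at stood at 2.196, 2.947 and 2.218 against 0.695, 1.56 and 1, again without overlap. Here the fold was 2.37 (1.18 to 4.76, log2 difference 1.24, SE 0.428, limma adjusted p = 0.835).

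The other 3 Zeb2 probe sets did not show this separation. Probe set 1456389_at, deposited under a clone name, stood at 0.588, 1.809 and 1.4 against 1, 1.034 and 0.774. Double-positive replicate 1 was the lowest of the 6 arrays, so the groups overlapped, and the log2 difference was 0.30 (SE 0.503). Probe set 1458941_at, the other clone name, was at -0.08 (SE 0.429) and ran from 0.615 to 1.226 in double-positive arrays and from 0.747 to 1.233 in double-negative ones. Probe set 1445518_at had the lowest flag score of the members, 2, and the log2 difference was -0.36 (SE 0.688), with ratios of 0.413 to 1.461 against 0.491 to 2.127. So 3 of 5 Zeb2 probe sets had a higher mean and 2 a lower one. The part of the Zeb2 transcript that each probe set covers was not analysed here.

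Snai1, which encodes the Snail zinc finger repressor that gastrulating mouse embryos need to lose E-cadherin, was measured by 1 probe set detected on all 6 arrays. It stood at 0.678, 1.34 and 1.574 on double-positive arrays against 0.455, 1 and 1.504. Replicate 1 was the lowest array of each group, and the groups overlapped over most of their range. The log2 difference was 0.35 (SE 0.574, fold 1.28, 95% confidence interval 0.501 to 3.26, limma adjusted p = 0.997).

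Snail and Zeb factors bind the E-box CACCTG, which reads CAGGTG on the other strand. RefSeq promoter windows (GRCm38.p6), 300 bases from 250 before to 50 after the annotated start, were matched by symbol for 5 of 9 members: Zeb2, Snai1, Twist1, Vim and Mmp14. Of these, only the window of Snai1 held the word, at position -126 from the start, while it was not in the 4 windows of Zeb2 or the windows of Twist1, Vim and Mmp14. Over all 27025 genes with a window, 22.6% held it on either strand. The Snai1 window is shown 5′ to 3′ with the E-box in capitals, since it is the one member window with the word that its own protein binds.
Snai1, chr2:167537945-167538244, plus strand: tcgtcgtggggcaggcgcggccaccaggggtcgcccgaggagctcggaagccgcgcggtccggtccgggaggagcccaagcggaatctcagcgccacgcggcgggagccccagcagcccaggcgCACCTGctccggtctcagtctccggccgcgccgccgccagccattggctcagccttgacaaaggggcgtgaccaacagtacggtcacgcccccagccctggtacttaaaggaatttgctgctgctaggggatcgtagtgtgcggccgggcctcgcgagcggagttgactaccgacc

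Snai2, which encodes Slug, a Snail family repressor prominent in neural crest, and Twist1, a basic helix-loop-helix factor of cranial mesoderm and limb, had the lowest differences among the repressors by representative probe set. Snai2 was at 0.239, 1.4 and 1.258 in double-positive arrays against 1, 1.764 and 0.601. The double-positive replicate 1 value was the lowest of the 6 arrays, and the SD in that group was 1.43 on the log2 scale. The log2 difference was -0.44 (SE 0.777, fold 0.735, interval 0.207 to 2.61). Its only probe set ends in _x_at, a suffix Affymetrix gives to probes that can also match other transcripts. Twist1 was at 0.491, 1.134 and 1.229 against 0.518, 1.492 and 1. Its replicate 1 arrays were low in both groups, and the remaining arrays interleaved. The log2 difference was -0.06 (SE 0.565, fold 0.96, interval 0.381 to 2.42), and both adjusted p-values were at least 0.997 (limma).

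Vim encodes vimentin, the intermediate filament protein of mesenchymal cells, and its 3 probe sets gave nearly equal differences. On 1450641_at it stood at 0.597, 1.812 and 1.234 on double-positive arrays against 0.274, 1.425 and 1. Replicate 1 was far below the others in both groups, and the groups overlapped. The log2 difference was 0.59 (SE 0.725, fold 1.51, interval 0.462 to 4.92, limma adjusted p = 0.993). On 1438118_x_at and 1456292_a_at it was 0.57 (SE 0.57) and 0.56 (SE 0.619). Without double-negative replicate 1, the array with the lowest 5'/3' control ratio, the 3 differences were -0.12, 0.05 and 0.01 in the order given. Without both replicate 1 arrays they were 0.32, 0.34 and 0.37.

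Fn1 encodes fibronectin, the matrix protein on which mesoderm migrates in the mouse gastrula. Its probe set 1426642_at was at 0.502, 1.656 and 1.434 in double-positive arrays against 0.466, 1.249 and 1. The log2 difference was 0.34 (SE 0.614, fold 1.27, interval 0.466 to 3.46), and without double-negative replicate 1 it was -0.08. The second probe set, 1437218_at, was at 1.538, 2.073 and 2.268 against 0.965, 2.704 and 1. Here the double-positive arrays were even (SD 0.29) and double-negative replicate 2 was the highest of the 6, which made the groups overlap. Its log2 difference was 0.49 (SE 0.507), and with 1 array left out at a time it ran from 0.23, without double-negative replicate 1, to 0.98, without double-negative replicate 2.

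Both matrix protease genes overlapped between groups. Mmp2, a secreted gelatinase that cuts collagen IV and denatured collagen, was at 0.373, 1.1 and 1.052 in double-positive arrays against 0.331, 1.122 and 1 on 1416136_at. Each group held 1 low array, replicate 1, and 2 arrays near 1.1 or 1, with a log2 difference of 0.07 (SE 0.656, fold 1.05, interval 0.36 to 3.07). On 1439364_a_at the log2 difference was 0.25 (SE 0.484). Mmp14 encodes the membrane-bound protease that activates the Mmp2 proenzyme. On 1448383_at it was at 0.507, 1.205 and 1.366 against 0.348, 1.158 and 1, a log2 difference of 0.35 (SE 0.624, fold 1.27, interval 0.46 to 3.53). Its other probe set, 1416572_at, with a flag score of 3, was at 1.298, 0.949 and 0.595 against 0.191, 1.213 and 1. That log2 difference of 0.55 (SE 0.755) was -0.55 without both replicate 1 arrays. Even the narrowest interval of the 4 protease probe sets, that of 1439364_a_at, ran from 0.539-fold to 2.62-fold, so smaller differences could not be seen with 3 arrays a group.

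**Figure D2:**
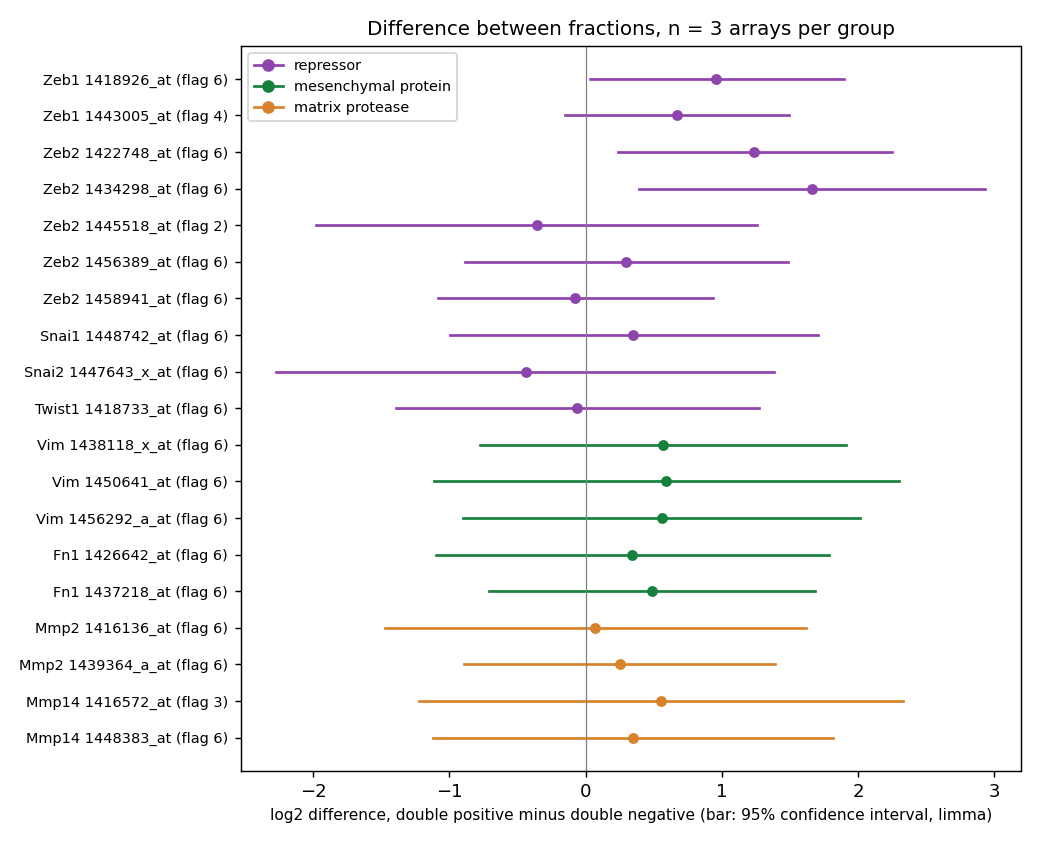
Log2 difference of each member probe set, double positive minus double negative, from limma over 6 arrays (points, with 95% confidence intervals as bars), coloured by role. The intervals of 3 probe sets, 1 of Zeb1 and 2 of Zeb2, lie above 0 before adjustment, and the intervals of the other 16 include 0.

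Several member differences depended on double-negative replicate 1. That array was the lowest of the 6 for 12 of 19 member probe sets. Of the 16 member probe sets with a flag score of 6, 10 lay below the array's own median there. On double-positive replicate 1 it was 9 of 16, and on the other arrays 1 to 4. Of the 9 probe sets of Vim, Fn1, Mmp2 and Mmp14 all had a higher double-positive mean over 6 arrays (median log2 difference 0.49), 3 did without double-negative replicate 1 (median -0.12), and 7 did without both replicate 1 arrays (median 0.32). Over all 19 member probe sets, 9 were higher without double-negative replicate 1 (median -0.08), and 15 were without both replicate 1 arrays (median 0.37). Of all 45037 probe sets, 24151 were higher over 6 arrays (median 0.05). Without double-negative replicate 1 it was 20290 (median -0.07), and without both replicate 1 arrays 23900 (median 0.04). Of the 14140 probe sets detected on all 6 arrays, 7755, 4641 and 7893 were higher in these fits (medians 0.04, -0.15 and 0.04). Leaving out double-negative replicate 1 also moved the median of all named genes from 0.04 to -0.15, with 4299 of 12287 higher. Without both replicate 1 arrays that median was 0.02, with 6441 of 12287 higher. The 4 Zeb probe sets without overlap keep a positive difference whichever arrays are left out, by the way they were picked, so only its size is given. For Zeb1 1418926_at the log2 difference was 0.95 when double-negative replicate 1 was left out and 1.13 when both replicate 1 arrays were, and for Zeb2 1434298_at it was 1.43 and 1.88. Zeb2 1422748_at was at 0.96 and 1.03, and Zeb1 1443005_at at 0.67 and 0.64. With the 5'/3' control ratio as a covariate, the representative differences were 0.92 for Zeb1 and 1.03 for Zeb2. They were 0.00 for Vim, -0.06 for Fn1 and Snai1, -0.61 for Snai2, -0.44 for Twist1, -0.43 for Mmp2 and -0.13 for Mmp14. That ratio is lowest by far on double-negative replicate 1, so this fit is not independent of leaving that array out.

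**Figure D3:**
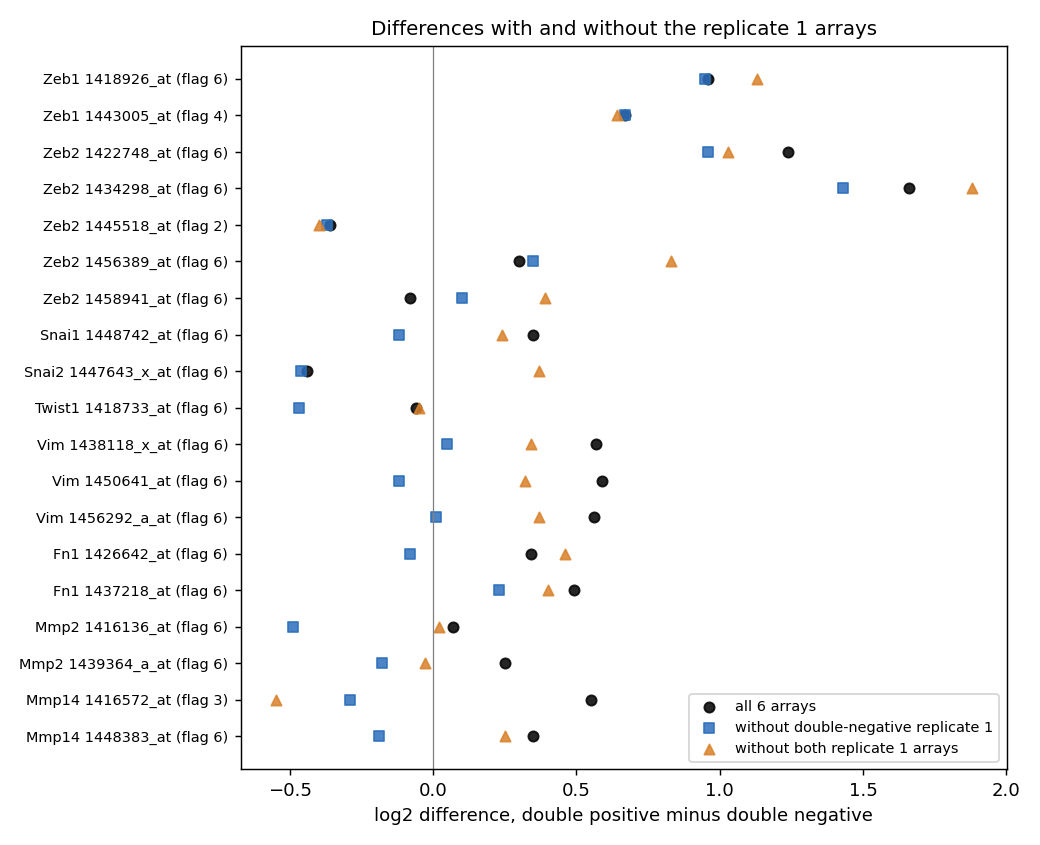
Log2 difference of each member probe set over all 6 arrays (black circles), with double-negative replicate 1 left out (blue squares) and with both replicate 1 arrays left out (orange triangles). Of the 9 probe sets of Vim, Fn1, Mmp2 and Mmp14, 3 lie above 0 when double-negative replicate 1 is left out; the 4 Zeb probe sets without overlap range from 0.64 to 1.88, their positive sign being fixed by the absence of overlap.

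For each member the 2 genes with the most similar 6 log2 values were taken, as a description. Each gene stood by its 1 representative probe set, 1418926_at for Zeb1 and 1422748_at for Zeb2, so the other probe sets of a member had no part in this. Likeness was the root mean square difference over the 6 arrays, among 8599 other named genes detected on all arrays. Nearest to Zeb1 were Sbsn and Adamts3 (0.17 each), and nearest to Zeb2 were Psmg3 (0.21) and Lpar6 (0.22). For Snai1 they were Ppwd1 (0.11) and Tmem47 (0.12), for Snai2 Kmt2d (0.36) and Fndc10 (0.37), and for Twist1 Esf1 (0.05) and Pcgf3 (0.08). Vim lay nearest to Gorasp2 (0.09) and H13 (0.11), and Fn1 to Rhno1 (0.07) and Chp1 (0.08). Mmp2 lay nearest to Rnps1 and Prpf4b (0.07 each), and Mmp14 to Golm1 (0.06) and Cbfb (0.08). All genes are read from the same 6 arrays, of which the replicate 1 arrays stood apart, and in each of the 8 genes named for Vim, Fn1, Mmp2 and Mmp14 double-negative replicate 1 was the lowest or next to the lowest array.

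Other genes of the pathway were taken from 7 lists holding 129 genes, of which 104 were measured. The lists were chosen with earlier results of these data known, so their counts beside all named genes are a description and not a test. None passed over the whole table (0 of 104, smallest limma adjusted p = 0.572). At an unadjusted p under 0.05 there were 3 higher and 11 lower, against 1.03% and 2.44% of all named genes. All 3 double-positive values lay above for 4 genes and below for 10, against 5.13% and 5.32% of named genes. Of the 10, 6 came from the epithelial list.

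Epithelial genes that Snail and Zeb factors repress were lower in double-positive arrays for 13 of 18 measured, against 45.6% of all named genes. The median log2 difference was -0.76, beside 0.04 over all named genes. None passed over all probe sets. An unadjusted p under 0.05 with a lower mean was found for 7, against 2.44% of named genes. All double-positive values lay below for 6, against 5.32%. Esrp1, an epithelial splicing regulator, was at 0.112, 0.258 and 0.582 in double-positive arrays against 0.625, 1 and 1.558 (log2 difference -1.95, SE 0.673, limma adjusted p = 0.835). The tight junction gene Cldn7 was at 0.29, 0.24 and 0.469 against 0.744, 1 and 1.473 (-1.69, SE 0.448). Pkp2, a desmosome plaque gene, was at -1.21 (SE 0.443), and Epcam, an epithelial surface protein gene, at 0.322, 0.398 and 0.652 against 0.702, 1 and 1.356 (-1.17, SE 0.449). Marveld2 (-1.15, SE 0.451) and Cldn4 (-0.90, SE 0.333) were the remaining genes without overlap. Cdh1, which encodes E-cadherin and is the best known Snail and Zeb target, was at -1.59 (SE 0.595), with double-positive replicate 3 (0.515) above double-negative replicate 1 (0.444). The keratin genes Krt8 (1.01, SE 0.772) and Krt18 (0.69, SE 0.594) pointed the other way. Double-negative replicate 1 was the lowest of the 6 arrays for both (0.245 and 0.438). Krt19, the other keratin gene of the list, was lower, with overlapping groups (-0.75, SE 0.586). Without double-negative replicate 1 the list median was -0.92, with 13 of 18 lower, beside 7988 of 12287 named genes (median -0.15). Without both replicate 1 arrays the list median was -0.61, with 14 of 18 lower, beside 5846 of 12287 named genes. The 5 pluripotency markers, which mark epithelial stem cells, were lower on the same arrays (median -1.26), and their part in this difference was not tested.

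The E-box word was common in the windows of this epithelial list, which was drawn up from known targets of these repressors. Of 13 of its genes with a RefSeq window, 12 held CACCTG or CAGGTG (92.3%, against 22.6% of all genes), Ovol2 being the exception. In the other mesenchymal marker list 1 of 15 did. A gene counted if any of its windows held the word. By window the epithelial share was 80.0%, against 20.2% over all genes. All 11 measured epithelial genes with a window held the word, so it could not sort them by their difference. These were 4 genes whose double-positive values lay below and 7 whose groups overlapped, Krt8 and Krt18 among the 7. A match describes the letters in these windows and does not show binding. The windows of those 4 genes are shown 5′ to 3′ with each E-box in capitals, 1 window per gene (GRCm38.p6), because these are the epithelial genes without overlap between groups that have a window. A further Cldn7 window, not shown, does not hold the word. Tjp3 (-1.25, SE 0.745), Ocln (-0.77, SE 0.62) and Patj (-0.34, SE 0.506) also had lower means and hold the word, with overlapping groups. Patj lacks it in its other windows. Positions, of the E-box's first base from the annotated start, are -187 and -19 in Epcam, -14 and 12 in Cldn4, -97 and -57 in Cldn7, and 17 in Marveld2.
Epcam, chr17:87635729-87636028, plus strand: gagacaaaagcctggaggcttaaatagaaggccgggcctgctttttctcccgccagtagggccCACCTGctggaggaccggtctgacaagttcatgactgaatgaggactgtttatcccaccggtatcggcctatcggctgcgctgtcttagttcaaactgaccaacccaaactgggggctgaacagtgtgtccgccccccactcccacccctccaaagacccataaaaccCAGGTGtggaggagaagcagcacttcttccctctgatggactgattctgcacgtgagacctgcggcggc
Cldn4, chr5:134946885-134947184, minus strand: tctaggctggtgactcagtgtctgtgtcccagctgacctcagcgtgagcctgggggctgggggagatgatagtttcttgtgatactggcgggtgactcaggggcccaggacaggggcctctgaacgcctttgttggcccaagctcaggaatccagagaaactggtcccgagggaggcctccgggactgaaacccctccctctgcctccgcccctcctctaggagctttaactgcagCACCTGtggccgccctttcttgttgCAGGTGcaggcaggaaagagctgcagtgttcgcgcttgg
Cldn7, chr11:69965171-69965470, plus strand: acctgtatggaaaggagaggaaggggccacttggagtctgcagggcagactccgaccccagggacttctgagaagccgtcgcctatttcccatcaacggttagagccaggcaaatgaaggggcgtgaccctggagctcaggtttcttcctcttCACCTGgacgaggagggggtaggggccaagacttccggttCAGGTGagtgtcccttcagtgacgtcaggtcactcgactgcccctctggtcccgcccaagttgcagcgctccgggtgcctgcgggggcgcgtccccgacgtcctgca
Marveld2, chr13:100616895-100617194, minus strand: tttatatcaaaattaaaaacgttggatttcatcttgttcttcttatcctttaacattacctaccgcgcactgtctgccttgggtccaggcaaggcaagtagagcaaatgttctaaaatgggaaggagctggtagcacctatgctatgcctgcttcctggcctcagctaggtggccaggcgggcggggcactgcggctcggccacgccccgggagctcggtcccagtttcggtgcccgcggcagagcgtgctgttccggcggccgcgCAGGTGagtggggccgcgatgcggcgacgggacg

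Other mesenchymal markers mostly had a higher double-positive mean with overlapping groups. Of 17 measured, 16 had a higher double-positive mean, against 54.4% of named genes, with a median of 0.34. None passed, and 0 had an unadjusted p under 0.05 (limma). Thy1, a surface glycoprotein gene with a flag score of 4, was the only one without overlap, at 1.033, 1.299 and 1.531 against 1, 1.029 and 0.984 (0.34, SE 0.352). This was 1 of 17 above, near the 5.13% of all named genes. Larger differences with overlapping groups, named after their values were seen, were those of the platelet-derived growth factor receptor genes Pdgfra (1.91, SE 1.07) and Pdgfrb (1.15, SE 0.718) and the matrix genes Sparc (1.13, SE 0.613) and Col1a1 (1.01, SE 0.813). In each of these, double-negative replicate 1 was the lowest of the 6 arrays. It was at 0.0956 for Pdgfra, 0.812 for Pdgfrb, 0.386 for Sparc and 0.226 for Col1a1. Without double-negative replicate 1, 11 of 17 were higher with a median of 0.15, and without both replicate 1 arrays 13 were, with a median of 0.22. Of all 12287 named genes, 4299 and 6441 were higher in these fits.

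EMT factors beyond the members were mixed, with 5 of 9 higher, beside 54.4% of named genes, and a median of 0.20. Gsc, a homeobox gene of the organizer, was the gene without overlap, at 1.955, 1.272 and 1.623 against 0.341, 1.187 and 1 (1.11, SE 0.552, limma adjusted p = 0.964). This was 1 of 9 above, against 5.13% of named genes. Foxf1, a forkhead gene of lateral mesoderm, had the only unadjusted p under 0.05 in that list and was named after its values were seen (1.30, SE 0.548, limma adjusted p = 0.907). Corepressors and regulators through which Snail and Zeb factors act or are controlled showed 9 of 19 higher and a median of -0.05. Only Loxl2, a lysyl oxidase gene whose product stabilises Snail, did not overlap (0.56, SE 0.349). This was 1 of 19 above, near the 5.13% of all named genes.

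Signals that induce EMT split, with 9 of 16 higher, beside 54.4% of named genes, and a median of 0.11. Bmp2, a BMP ligand gene that drives EMT in cardiac cushions, was at 2.683, 6.014 and 5.403 in double-positive arrays against 0.704, 1.33 and 1 (2.18, SE 0.472, limma adjusted p = 0.572). Nodal, the TGF-beta family ligand gene that starts gastrulation, was at 0.368, 0.23 and 0.323 against 0.728, 1 and 1.046 (-1.60, SE 0.383, limma adjusted p = 0.628). The groups did not overlap for these genes, which lay on opposite sides. This was 1 of 16 above and 1 of 16 below, against 5.13% and 5.32% of named genes. Of 8 primitive streak genes 4 were higher (median 0.14). T, the brachyury gene, was at 0.178, 0.389 and 0.651 against 0.657, 1 and 1.103 (-1.34, SE 0.551), and Epb41l5, which the mouse embryo needs to complete EMT at the streak, was at -0.74 (SE 0.369). Both lay below without overlap, 2 of 8, against 5.32% of named genes. Mixl1 (1.71, SE 1.21), Eomes (2.83-fold, SE 0.792 on the log2 scale) and Mesp1 (1.19, SE 0.641) had higher double-positive means with overlapping groups. These are transcription factor genes of streak and early mesoderm named after their values were seen. In each, double-negative replicate 1 was the lowest of the 6 arrays, at 0.0638, 0.158 and 0.336. The other double-negative arrays stood at 1 to 1.492 for these genes. With double-negative replicate 1 left out, the medians of these lists were -0.20 for the further factors (3 of 9 higher), -0.41 for the corepressors (3 of 19), -0.32 for the signals (4 of 16) and -0.43 for the streak genes (3 of 8). With both replicate 1 arrays left out they were 0.22 (7 of 9), 0.10 (12 of 19), 0.03 (9 of 16) and 0.00 (4 of 8). Over all named genes the median was -0.15 (4299 of 12287 higher) without double-negative replicate 1. It was 0.02 (6441 of 12287 higher) without both replicate 1 arrays.

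Fibronectin receptors and protease partners were higher for 13 of 17, beside 54.4% of named genes, with a median of 0.24. The median was -0.10 with 6 of 17 higher when double-negative replicate 1 was left out, beside 4299 of 12287 named genes. When both replicate 1 arrays were left out it was 0.04 with 11 of 17 higher, beside 6441 of 12287. Sdc4, encoding syndecan-4, a coreceptor of fibronectin, was the gene without overlap, on the lower side (1 of 17, against 5.32% of named genes). It stood at 0.351, 0.413 and 0.322 in double-positive arrays against 1.002, 0.965 and 1, a 2.75-fold lower level (log2 difference -1.46, SE 0.339, limma adjusted p = 0.603). Mmp9, the gelatinase gene related to Mmp2, had the one unadjusted p under 0.05 on the higher side and was named after its values were seen. It stood at 4.104, 5.584 and 3.675 against 0.375, 3.97 and 1, so double-negative replicate 2 lay within the double-positive range (1.94, SE 0.82, limma adjusted p = 0.907).

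**Figure D4:**
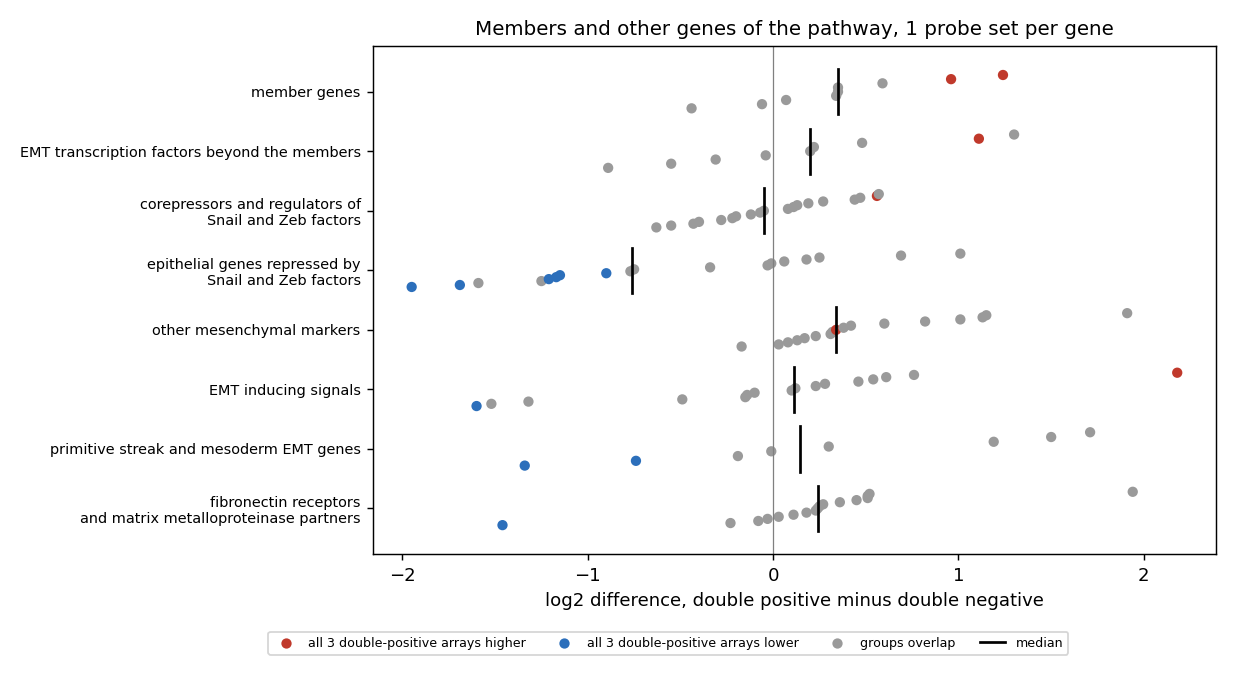
Log2 difference of the 9 member genes and of the measured genes of 7 pathway lists, 1 probe set per gene, with the list median as a black line, red for genes with all 3 double-positive arrays above and blue for all 3 below. The epithelial list lies lowest with a median of -0.76, and Zeb1 and Zeb2 are the 2 red members at 0.96 and 1.24.

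The authors' deposited table lists folds of 1.948 and 1.593 for the Zeb1 probe sets with p-values of 0.0474 and 0.0422. For the Zeb2 probe sets 1422748_at and 1434298_at the authors' deposited table gives 2.366 and 3.159 with p-values of 0.0506 and 0.0549. In the authors' deposited table, 1.35% of probe sets had a p-value under 0.05 with a fold above 1 and 1.98% with a fold below 1, and the 2 Zeb1 probe sets were the only members among them, both with a fold above 1. Those p-values are not adjusted for the number of probe sets.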

How the data were processed

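RNA of 6 sorted samples was hybridised to Affymetrix Mouse 430 2.0 arrays, per the labels' protocols. For 45101 probe sets the authors deposited ratios on a linear scale, divided by the double-negative median (which is 1 for 100% of them). How probes were summarised, corrected for background and scaled is not stated in the sources. The authors' deposited comparison table gives a fold, a p-value and a flag score, and its fold equals the ratio of geometric group means within 1% for 100% of probe sets. The depth of signal over background is unknown, so the number of arrays limits the precision.

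The log2 of each ratio was used with no pseudocount, 64 control probe sets were left out, and limma 3.58.1 in R 4.3.3 (lmFit, eBayes, two-sided, Benjamini-Hochberg, threshold 0.05) was run on 45037 probe sets, with code tested on simulated data. Names were updated through RefSeq (GRCm38.p6). A symbol matched for 11499 probe sets and 1 synonym for 8651, 1147 names were kept as given, 117 had several candidates, and 1112 had none. A gene in a list stood by the probe set with the highest flag score, then the plainest suffix, then the lowest identifier. Members, lists and tests were chosen with earlier results of these data known. Fndc3b stands in the fibronectin list and is not a receptor. The genes named are all members, Cxcr4 and Kdr, then per list up to 4 genes without overlap with the largest differences, and per member the 2 nearest genes. Marveld2, Cldn4, Cdh1, Krt8, Krt18, Krt19, Ovol2, Foxf1, Mmp9, Pdgfra, Pdgfrb, Sparc, Col1a1, Mixl1, Eomes, Mesp1, Tjp3, Ocln and Patj fall outside this rule and were named after their values were seen. Other settings tried were other scalings, pseudocounts, filters, variance models, weights, a covariate, the replicate number as a block, and arrays left out.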

Additional observations from a re-analysis of the deposited data

How the results depend on the processing

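With 3 arrays per group most member intervals are wide, and signal over background is not known. The count of member probe sets, of list genes and of sort genes past the threshold was 0 in every fit tried, and so was that of all probe sets except for 5 of 14140 with the replicate block on probe sets detected on all 6 arrays. At an unadjusted p under 0.05 there were 3 member probe sets over 6 arrays. That count was 0 when quantiles were equalised, when the variance model had a trend and was robust, and when either double-positive replicate 2 or double-negative replicate 1 was left out. It was 6 of 16 with the replicate block on probe sets detected on all 6 arrays, namely 1 of Zeb1, 2 of Zeb2 and the 3 of Vim. All 6 had a higher mean, beside 1064 higher and 1078 lower of all 14140 probe sets in that fit. In every other fit the member count was 1 to 3.

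The replicate numbers pair the arrays only in part: deviations from the group means correlated at 0.26, 0.14 and 0.06 for numbers 1 to 3, and double-positive replicate 3 correlated more with double-negative replicate 2 (0.09). With the replicate block 0 of 45037 probe sets passed (limma, smallest adjusted p = 0.563) and 3562 had an unadjusted p under 0.05, against 2478 without it. The smallest adjusted p of a member was 0.57 with the block over all probe sets, 0.0988 over those detected on all 6 arrays, and 0.146 over 1 probe set per gene, an alternative chosen after seeing the data. Centring each array on its detected probe sets, also chosen after seeing the data, changed the sign of 0 of 19 differences.

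Of the 19 differences, 7 kept their sign in all fits, of which 4 are the Zeb probe sets without overlap, whose sign leaving out arrays cannot change, and 12 changed it in at least 1; the cause was not tested, and no difference that changed sign was called. Without both replicate 1 arrays Zeb2 1458941_at was at 0.39, Snai2 at 0.37, Mmp2 1439364_a_at at -0.03 and Mmp14 1416572_at at -0.55. With array weights Zeb2 1458941_at was at 0.26, Snai2 at 0.10 and Mmp14 1416572_at at -0.23, and after quantile normalization Zeb2 1458941_at was at 0.10. With the 5'/3' control ratio as a covariate Snai1 and Fn1 1426642_at were at -0.06, Vim 1450641_at at 0.00, Mmp2 1416136_at at -0.43 and 1439364_a_at at -0.09, and Mmp14 1448383_at at -0.13. Leaving out 1 array at a time gave a log2 difference of 0.70 to 1.14 for Zeb1 1418926_at, 0.54 to 0.80 for 1443005_at, 0.96 to 1.54 for Zeb2 1422748_at and 1.28 to 2.11 for 1434298_at. It gave -0.89 to 0.17 for Zeb2 1445518_at, -0.03 to 0.78 for 1456389_at and -0.28 to 0.22 for 1458941_at. The ranges were -0.12 to 0.74 for Snai1, -0.89 to 0.38 for Snai2 and -0.47 to 0.36 for Twist1. They were -0.12 to 1.07 for Vim 1450641_at, 0.05 to 0.96 for 1438118_x_at, 0.01 to 1.03 for 1456292_a_at, -0.08 to 0.88 for Fn1 1426642_at, 0.23 to 0.98 for 1437218_at, -0.49 to 0.58 for Mmp2 1416136_at, -0.18 to 0.56 for 1439364_a_at, -0.29 to 1.04 for Mmp14 1416572_at and -0.19 to 0.80 for 1448383_at.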
